A study of Mus musculus with 12 samples.

Results

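Gene expression in the cochlea of Dusp1-/- (KO) mice was compared between 20 and 32 weeks of age. The comparison took 6 of the 12 RNA-seq libraries of the series: 3 from KO mice of 20 weeks, labelled as 5 months (libraries E7, F18 and F19), and 3 from KO mice of 32 weeks, labelled as 8 months (F5, F6 and F27). The other 6 came from Dusp1+/+ (WT) mice, 3 at each age, and are set beside them. Members were chosen by genotype and age alone. All mice had a mixed 129S2/SvPas:C57BL/6 background, carried no treatment by their labels, and were not selected for sex. The deletion is constitutive, so it is shared by every cell type in the KO libraries. Each library holds whole cochleae freed from the vestibule, and no source used here says how many animals went into one, so the p-values measure the spread between these libraries. Of 23948 genes read, 16277 had a mean of at least 0.5 FPKM (fragments counted over a gene, scaled to the length of its exons and to the mapped reads of the library) over the 12 libraries and were tested.

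DUSP1 is an inducible phosphatase that switches off the stress-activated MAP kinases p38 and JNK. Stress, growth factors and glucocorticoids induce it, and its loss prolongs kinase signalling and cytokine production. The cochlea holds sensory hair cells and supporting cells, the spiral ganglion neurons that carry their signal to the brainstem, the stria vascularis that makes endolymph, fibrocytes of the lateral wall, and marrow-bearing bone around them. Hair cells and spiral ganglion neurons are not replaced in mammals.

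The tissue markers were present in all 6 KO libraries. Otos, the otospiralin of cochlear fibrocytes, lay between 1811 and 2763 FPKM, Gjb2, the gap junction protein of supporting cells and fibrocytes, between 314 and 415 FPKM, and Ocm, the oncomodulin of outer hair cells, between 49.4 and 73.5 FPKM. The prestin gene Slc26a5, specific to outer hair cells, lay between 1.04 and 2.07 FPKM. Dusp1 itself was read at 61.9, 81.5 and 75.3 FPKM in the KO libraries of 20 weeks and at 55.6, 73.7 and 57.1 FPKM in those of 32 weeks, with overlapping ranges (log2 difference -0.23, exact permutation test, two-sided, p = 0.2, where 0.1 is the smallest that 3 against 3 allows). A value per gene cannot show the disrupted part of the transcript, so these levels do not check the genotype.

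The KO libraries differed in make-up within each age. S100a8, a neutrophil gene, reached 10376, 1719 and 3229 FPKM in E7, F18 and F19, and 7426, 410 and 487 FPKM in F5, F6 and F27. E7 and F5 therefore stood high and F6 and F27 low. F18 was the highest KO library in fat and muscle genes. Fabp4, the fatty acid binding protein of adipocytes, was at 3430 FPKM there, against 428 in E7 and 38.4 in F19. Acta1, skeletal muscle actin, was at 188 FPKM in F18, against 0.641 in E7 and 27 in F19. The mean of adipocyte genes was 5.06, 7.09 and 2.81 log2 in E7, F18 and F19. In F5, F6 and F27 that mean was 5.53, 6.12 and 3.95 log2. By Xist, all 3 KO libraries of 20 weeks and F5 were male and F6 and F27 were female, so in KO age and sex are partly confounded, and a comparison of male libraries alone sets F5 against the 3 younger ones, with its spread taken from the other groups. In WT, library E1 of 20 weeks stood apart in genes of central glia and brainstem, with a mean of 3.99 log2 against 2.28 to 2.61 in the other 5. The WT library F12 of 32 weeks stood apart in mitosis genes, at 2.06 log2 against 0.53 to 0.92 in the other 5. F12 was also the highest WT library for neutrophil, B cell and red cell genes. Depth was estimated from the lowest values, each taken as 1 read, at about 19200000 to 22100000 reads over the 12 libraries. Only values that put depth within a fixed range were kept, so the likeness of these estimates is partly built in. In bulk tissue, fewer cells of a type and less RNA per cell cannot be told apart.

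**Figure D1:**
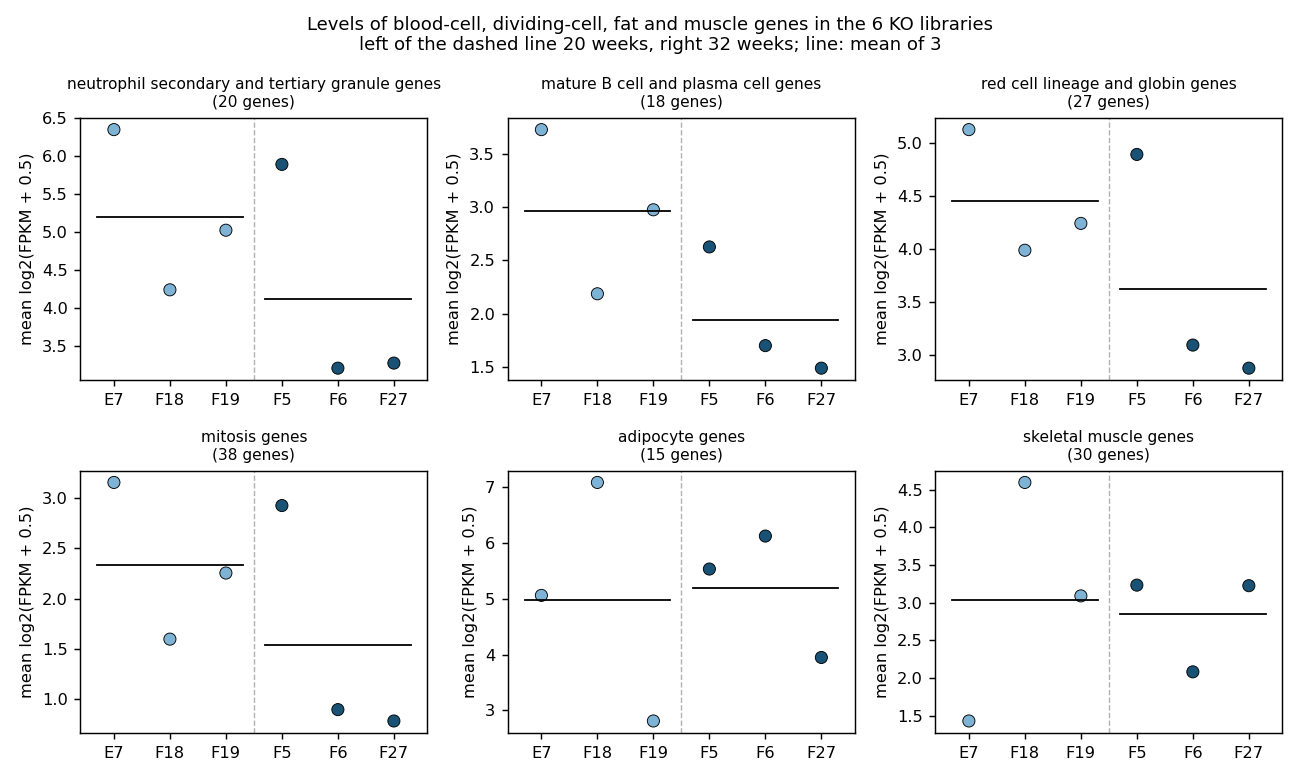
Mean log2(FPKM + 0.5) of the genes of 6 marker lists in each of the 6 KO libraries (points; library codes on the x axis), with the mean of each age as a line. E7 and F5 are the highest of their age for neutrophil, B cell, red cell and mitosis genes, F6 and F27 are the lowest, and F18 is the highest for fat and muscle genes.

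With age, no gene passed an adjusted p of 0.05 in KO, in either direction (limma, Benjamini-Hochberg; 0% of 16277 genes higher and 0% lower, smallest adjusted p 0.289). At an unadjusted p under 0.05 there were 1438 genes higher at 32 weeks (8.83% of those tested) and 611 lower (3.75%). After scaling each library by median ratios the same counts were 1082 higher and 991 lower, so the excess of higher genes depended on the scaling. All 3 libraries of 32 weeks lay above all 3 of 20 weeks for 1806 genes (11.1%) and below them for 744 (4.57%). In WT, 696 genes were higher (4.28%) and 577 lower (3.54%) at the same unadjusted p. WT libraries of 32 weeks all lay above those of 20 weeks for 1684 genes (10.3%) and below for 1433 (8.8%). The median log2 difference over all genes was 0.01 in KO and 0.02 in WT. Log2 differences here are on the log2(FPKM + 0.5) scale, which understates the change of genes of few FPKM.

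The genes at an unadjusted p under 0.05 in KO leaned the same way in WT, by less. The 1438 higher genes had a median log2 difference of 0.30 in KO and 0.10 in WT, and 1142 of them were higher in WT too, 194 at an unadjusted p under 0.05. Over all tested genes the sign was the same in both genotypes for 9697 (59.6%). The 611 lower genes had medians of -0.30 and -0.13, and 478 were lower in WT, 85 at that p. The first median of each pair describes genes picked by the same values.

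Gene length moved with the age difference in both genotypes. The genes higher at 32 weeks in KO had a median exon length of 1732 bases, the lower ones 4865 bases, and all tested genes 2748 bases. Over 1130 genes of 500 to 1000 bases the median log2 difference was 0.14 in KO and 0.17 in WT, and over 2781 genes above 5000 bases it was -0.10 and -0.11. Among KO genes of 500 to 1000 bases 20.2% were higher at an unadjusted p under 0.05, against 1.11% of those above 5000 bases. In single libraries the median level of genes above 5000 bases less that of genes of 500 to 1000 bases, each gene taken relative to its mean over the 12, was 0.07, -0.08 and 0.15 log2 in E7, F18 and F19, and -0.15, -0.44 and -0.02 in F5, F6 and F27. F6 was the lowest and the ranges did not overlap between E7, F19 and the older libraries, while F18 lay among the older ones. The part of length in the results below was not tested, and several list medians are therefore also given relative to genes of the same length class.

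**Figure D2:**
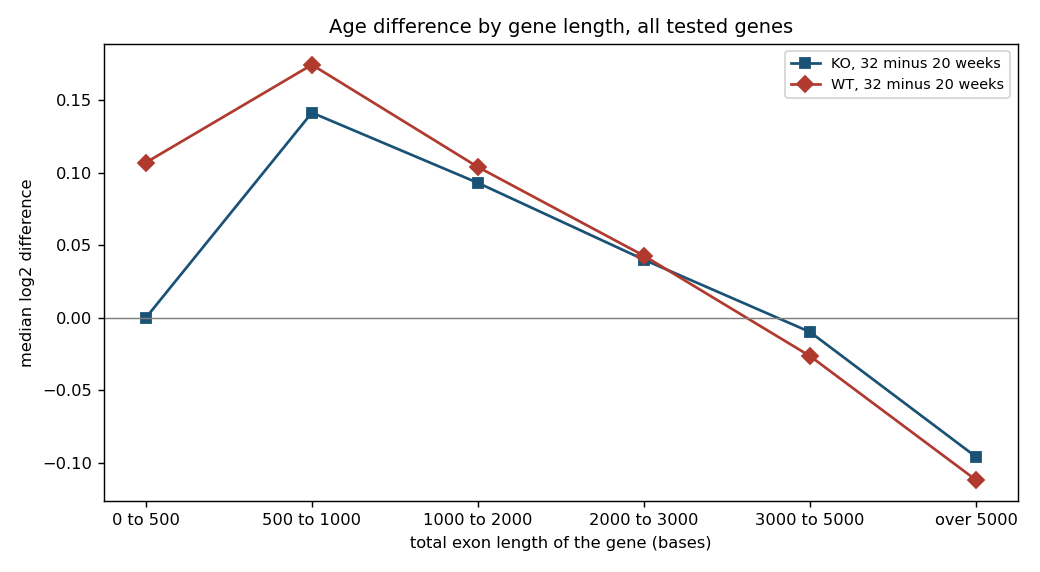
Median log2 difference between 32 and 20 weeks (y axis) of all tested genes in 6 classes of total exon length (x axis, bases), in KO (squares) and WT (diamonds). From 500 bases upwards the median declines with length in both genotypes, from 0.14 to -0.10 in KO and from 0.17 to -0.11 in WT.

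The 10 genes with the smallest unadjusted p that were higher at 32 weeks in KO had differences between 0.30 and 1.17. Rcn3, a calcium-binding protein of the endoplasmic reticulum, was at 63.3, 69.3 and 68.1 FPKM at 20 weeks and at 97.6, 101 and 91.7 FPKM at 32 weeks (log2 difference 0.53 ± 0.08 SE, adjusted p 0.289, n = 3 per age). Cpxm1, a secreted carboxypeptidase-like protein, went from 30.7, 27.5 and 30.8 FPKM to 42.1, 38.9 and 41.6 FPKM (0.46 ± 0.07). Mdk, the heparin-binding growth factor midkine, had 37.4, 40.0 and 46.3 FPKM at 20 weeks and 60.6, 68.4 and 67.3 FPKM at 32 weeks (0.66 ± 0.12). In each of the 3 the ages did not overlap, and the male library F5 lay near the female F6 and F27. The choice by smallest p favours genes whose libraries agree, so this likeness is no test of sex.

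The others have a range of functions. Dctn6, a subunit of the dynactin complex that links dynein to cargo, stood at 62.3, 61.7 and 66.8 FPKM against 77.5, 87.9 and 83.3 FPKM (0.38 ± 0.06). B9d1, a protein of the ciliary transition zone, stood at 15.5, 16.6 and 16.3 FPKM against 21.6, 23.1 and 22.1 FPKM (0.45 ± 0.08), and it was also higher in WT, by 0.36. Efcab10, an EF-hand protein of low level, had the largest difference of the 10, from 2.04, 1.35 and 1.68 FPKM to 4.44, 3.80 and 4.98 FPKM (1.17 ± 0.20). The remaining 4 were Ascc1, Resp18, Lyrm4, which takes part in iron-sulfur cluster assembly, and Il11ra1, the interleukin 11 receptor, with differences of 0.30 to 0.43, all without overlap.

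The 10 genes chosen in the same way that were lower at 32 weeks had differences between -0.19 and -0.83. Itpr2, a calcium release channel of the endoplasmic reticulum, was at 6.74, 7.79 and 6.50 FPKM at 20 weeks and at 5.13, 4.92 and 5.11 FPKM at 32 weeks (-0.43 ± 0.09 SE, adjusted p 0.289, n = 3 per age). Znrf2, a ubiquitin ligase, was at 16.2, 18.5 and 17.8 FPKM against 13.0, 11.2 and 12.8 FPKM (-0.49 ± 0.09). Corin, the protease that activates atrial natriuretic peptide, was at 4.50, 3.66 and 3.50 FPKM against 1.51, 2.09 and 2.33 FPKM (-0.83 ± 0.19). Corin had the largest difference of the 10. Gna13, a G protein subunit, Klhl24, Samd8, Sec24a of the COPII vesicle coat, Ipo7, a nuclear import receptor, Zfp91 and Skil, a repressor of TGF-beta signalling, were lower by 0.19 to 0.44, with no overlap between the ages. These 20 genes kept their direction in all 26 alternative analyses (520 values, 0 sign changes), and none of them passed an adjusted p of 0.05 in any. Their ages did not overlap, so leaving libraries out could not change a sign. Leaving out a WT library does not alter a KO difference at all. The count of sign changes is therefore no support for these genes.

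**Figure D3:**
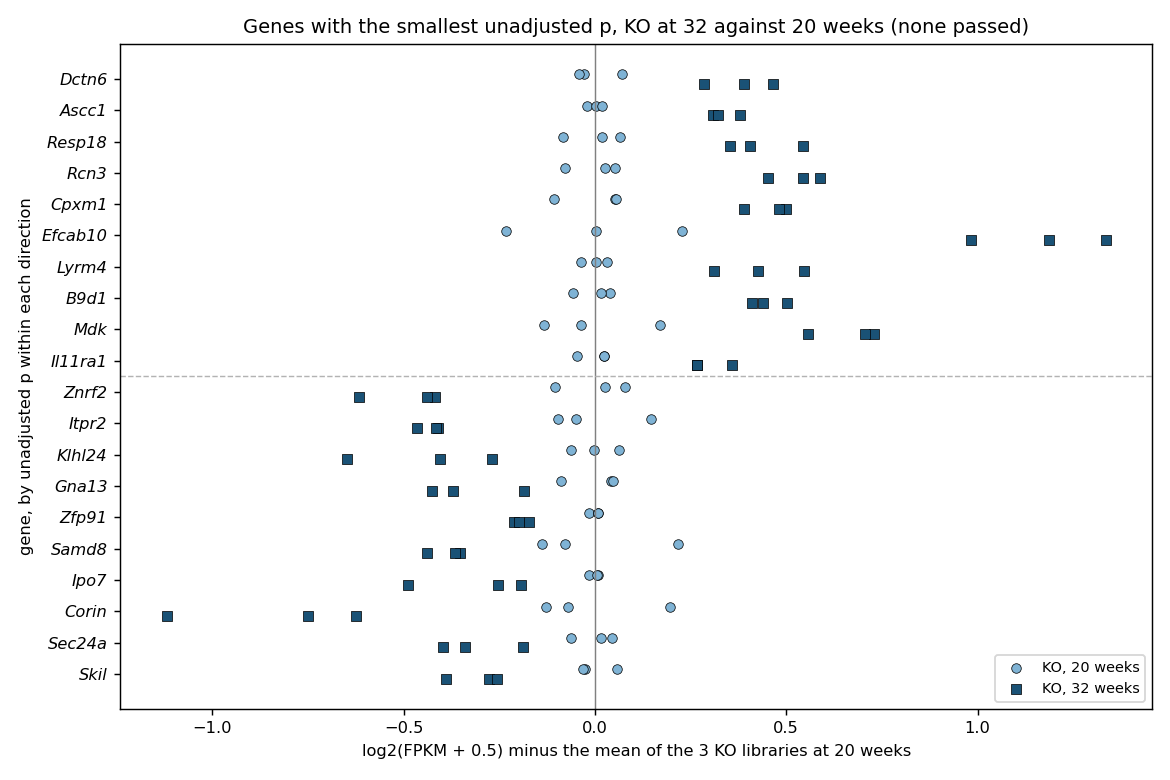
Log2(FPKM + 0.5) of the 10 higher and 10 lower genes of smallest unadjusted p, for each KO library relative to the mean of the 3 libraries of 20 weeks (x axis). Circles (20 weeks) and squares (32 weeks) do not overlap for any of the 20 genes, which were chosen for that difference.

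The gene lists below (51 lists, 1416 distinct genes tested) hold no gene that passed in KO, so they are described by counts and medians. Over all 16277 genes 53.2% were higher at 32 weeks in KO and 53.8% in WT, which is the background for each count of higher genes below. The proteins of the cytosolic ribosome, which translate mRNA, leaned one way: 78 of 81 were higher at 32 weeks, with a median of 0.17. At an unadjusted p under 0.05, 30 of them (37.0%) were higher, against 8.83% of all genes. Of all genes of 500 to 1000 exon bases, the class of the median length of the list, 20.2% were higher at that p. Rpl35 was at 783, 753 and 747 FPKM at 20 weeks and 972, 1007 and 992 FPKM at 32 weeks (0.38 ± 0.07). Rpl41 was at 1709, 1686 and 1632 FPKM against 2162, 2253 and 2145 FPKM (0.38 ± 0.10). Neither gene overlapped between the ages. These are short genes (median 689 exon bases), and relative to their length classes the median was 0.06, with 63 of 81 above. In WT all 81 were higher, with a median of 0.22. With sex as a covariate the median was 0.15, with 78 of 81 higher and 12 at an unadjusted p under 0.05, where 6.16% of all genes were. In male libraries alone it was 0.21, with 9 at that p against 3.89% of all genes.

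The proteasome, which degrades tagged proteins, had 30 of 35 subunits higher with a median of 0.09, which was -0.01 relative to genes of their length. Psmc2, an ATPase of its cap, went from 65.0, 63.0 and 63.8 FPKM to 70.7, 73.8 and 74.1 FPKM (0.19 ± 0.05), while the activator Psme4, a long gene, went from 18.1, 19.2 and 18.8 FPKM to 16.6, 15.3 and 15.4 FPKM (-0.24 ± 0.06). Oxidative phosphorylation genes, the mitochondrial respiratory chain, had 48 of 79 higher and a median of 0.06 in KO, against 77 of 79 and 0.25 in WT. Their level turned on F18: Atp5b, the catalytic subunit of ATP synthase, was at 793, 1315 and 734 FPKM in E7, F18 and F19, and at 805, 992 and 774 FPKM at 32 weeks. Without F18 the median of the list was 0.29, and without F6 it was -0.07. Relative to genes of the same length it was -0.05, with 25 of 79 above.

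Glutathione metabolism, the thiol system that detoxifies peroxides and electrophiles, had 30 of 43 genes higher, 8 of them (18.6%) and no lower gene at an unadjusted p under 0.05. That share is near the 16.8% of all genes of 1000 to 2000 exon bases, the class that holds the median length of the list. The median was 0.12 in KO and 0.11 in WT, and 0.02 in KO relative to genes of the same length. It was 0.04 without E7, 0.05 without F6 and 0.07 with sex as a covariate, with 5, 4 and 5 genes higher at that p. The glutathione S-transferase Gstm5 was at 73.2, 82.4 and 85.3 FPKM at 20 weeks and 98.7, 116 and 102 FPKM at 32 weeks (0.39 ± 0.08, adjusted p 0.289, n = 3 per age). Gstt1 was at 52.0, 56.9 and 59.3 FPKM against 64.8, 86.5 and 73.5 FPKM (0.41 ± 0.09). Gstm2 was at 82.8, 83.5 and 87.8 FPKM against 90.4 in F5 and 143 in both F6 and F27 (0.53 ± 0.15). Gstm2 was thus highest in the female libraries, and it passed at an adjusted p of 0.05 when F5 was left out (log2 difference 0.75). Gpx3, the secreted glutathione peroxidase, was at 556, 649 and 508 FPKM against 752, 791 and 703 FPKM (0.40 ± 0.14). Of 32 other antioxidant enzyme genes 15 were higher, with a median of -0.01. Hmox1, the inducible heme oxygenase, was at 39.6, 18.6 and 22.7 FPKM against 22.8, 16.6 and 12.1 FPKM, with overlap. Of 18 pentose phosphate and NADPH-producing genes 4 were higher, with a median of -0.14 against 0.14 in WT. The size of the KO median depended on F18, where the list mean was 5.10 log2, against 4.86 in E7 and 4.62 in F19. In F5, F6 and F27 the list mean was 4.83, 4.78 and 4.58 log2. Without F18 the KO median was -0.06, with 7 of 18 higher. With sex as a covariate it was -0.07, with 4 higher, and without F6 it was -0.17, with 3 higher.

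Of neuronal and synaptic genes, more were higher at 32 weeks in KO than in WT. Of 43 spiral ganglion neuron genes 31 were higher at 32 weeks in KO, with a median of 0.14, against 20 of 43 and a median of -0.00 in WT. At an unadjusted p under 0.05, 8 (18.6%) were higher and 1 lower in KO, against 8.83% and 3.75% of all genes. Without the WT library E1 the WT counts were 29 of 43, with a median of 0.06. The median difference between the genotypes in the age contrast was 0.14 with E1 and 0.11 without it. Over all genes it was 0.01 in both cases. The part of E1 in the contrast was not tested. Of 38 genes of synaptic vesicles and their release 29 were higher in KO (median 0.13), against 7 of 38 in WT (median -0.21). Without E1, whose synaptic genes averaged 5.05 log2 against 4.34 to 4.61 in the other WT libraries, the WT values were 10 of 38 and -0.10. The difference between the genotypes in the age contrast was tested per gene, and at an unadjusted p under 0.05 it was positive for 11 of the 38 synaptic genes and 7 of the 43 neuron genes, against 491 of all 16277 genes (3.02%), and negative for none of them, against 270 (1.66%). Without E1 the difference was positive for 7 synaptic and 5 neuron genes and negative for 1 of each, against 373 and 192 of all genes. None of these passed adjustment.

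Stmn3, a tubulin-binding protein of neurons, was at 227, 253 and 258 FPKM in KO at 20 weeks and at 279, 351 and 310 FPKM at 32 weeks (0.34 ± 0.09). Its WT values were 291, 271 and 304 FPKM at 20 weeks and 274, 302 and 308 FPKM at 32 weeks. The 3 KO libraries of 20 weeks were thus the lowest of the 12. Rtn1, a reticulon of neuronal endoplasmic reticulum, followed the same order, with 62.2, 65.5 and 67.4 FPKM in KO at 20 weeks, 92.8, 102 and 77.9 FPKM in KO at 32 weeks (0.47 ± 0.17), and 79.1 to 133 FPKM over the 6 WT libraries. Vamp2, the synaptic vesicle SNARE, was at 99.6, 95.3 and 111 FPKM in KO at 20 weeks and 119, 144 and 133 FPKM at 32 weeks (0.37 ± 0.14). In WT it was at 181, 146 and 120 FPKM and then at 135, 111 and 114 FPKM, so its means moved in opposite directions (difference of the age contrasts 0.66 ± 0.20, adjusted p 0.876), and the highest WT value was that of E1. Snap25, its partner on the plasma membrane, was at 466, 439 and 493 FPKM in KO at 20 weeks and at 457, 530 and 562 FPKM at 32 weeks (0.14 ± 0.09), with overlap. In WT it was at 698, 631 and 626 FPKM and then at 539, 554 and 574 FPKM, where the ages did not overlap.

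Not all neuronal genes were separated by age. Tubb3, neuronal tubulin, was at 127, 117 and 150 FPKM against 216, 217 and 139 FPKM, and the library F27 lay within the range of 20 weeks. Ngfr, a neurotrophin receptor of Schwann and other glial cells, showed the same split, with 19.7, 19.9 and 20.8 FPKM against 42.8, 34.8 and 18.1 FPKM. Without F6, 3 of the 43 neuron genes and none of the 38 synaptic genes were higher at an unadjusted p under 0.05, where the count over all genes was 752 (4.62%), while the medians were 0.12 for both lists with 30 of 43 and 31 of 38 higher. The medians stayed above 0 in the 26 alternatives, between 0.04 and 0.21 for neuron genes and between 0.07 and 0.19 for synaptic genes. Leaving out a WT library does not alter a KO difference, and the other alternatives reuse the same KO libraries. The constant sign is therefore no separate support. Central glial and brainstem genes, which would come from the cut end of the nerve, had a median of 0.02 with 18 of 27 higher in KO. In WT they had a median of -0.13 with 6 of 27 higher, and of 0.02 with 16 of 27 higher without E1. The part of brainstem tissue in the WT values was not tested. In KO, Gfap was at 47.6, 39.8 and 64.4 FPKM against 53.2, 67.3 and 73.9 FPKM. Myelin and Schwann cell genes had 10 of 29 higher and a median of -0.02. Of 46 voltage-gated channel genes 27 were higher, with a median of 0.05 in KO and -0.19 in WT (-0.03 without E1).

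Hair cell genes had 32 of 39 higher in KO with a median of 0.17, against 25 of 39 and 0.06 in WT. At an unadjusted p under 0.05, 3 (7.69%) were higher and 1 lower in KO, against 8.83% and 3.75% of all genes. Over the 26 alternatives the KO median lay between 0.06, in male libraries alone with 24 of 39 higher, and 0.24, without F5. Pou4f3, the transcription factor that keeps hair cells alive, was at 2.92, 3.41 and 6.01 FPKM against 5.93, 7.44 and 6.38 FPKM (0.67 ± 0.29, adjusted p 0.382, n = 3 per age). Espn, the actin bundler of stereocilia, was at 6.55, 6.85 and 13.2 FPKM against 12.7, 16.8 and 15.2 FPKM (0.78 ± 0.29). Both were low in E7 and F18 and not in F19. Otog and Nox3 divided the libraries the same way. Otog, the otogelin of the acellular membranes of both the cochlea and the vestibule, was at 14.7, 16.5 and 33.4 FPKM against 24.9, 32.1 and 24.9 FPKM. Nox3, the oxidase that the vestibule needs to form otoconia, was at 0.662, 1.23 and 11.2 FPKM against 11.3, 19.9 and 6.15 FPKM (2.03 ± 0.91). The part of tissue left from the vestibule was not tested. The outer hair cell gene Slc26a5 went the other way, at 1.94, 2.06 and 1.73 FPKM against 1.34, 1.04 and 2.07 FPKM, with overlap.

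Among the other cells of the cochlear duct, supporting cell genes had 23 of 34 higher (median 0.04) and tectorial membrane and otic matrix genes 9 of 16 (0.02). Genes of stria vascularis marginal cells, which secrete potassium, had 9 of 20 higher (-0.01). Slc12a2, the sodium, potassium and chloride cotransporter of these cells, was at 132, 152 and 178 FPKM against 121, 117 and 133 FPKM (-0.31 ± 0.14), and overlapped through E7 and F27 only. Dach1, a transcription factor, was at 5.29, 4.39 and 5.24 FPKM against 4.18, 3.50 and 3.54 FPKM (-0.37 ± 0.12), without overlap. Pigment cell genes had 7 of 21 higher (-0.06) and endothelial genes 20 of 30 (0.07).

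Fibrocyte and otic mesenchyme genes had 20 of 25 higher in KO with a median of 0.14, against 13 of 25 and 0.00 in WT. Among male libraries alone the KO median was -0.05. Fmod, the collagen-binding proteoglycan fibromodulin, was at 36.4, 37.5 and 42.0 FPKM in KO at 20 weeks and at 78.7, 55.1 and 68.1 FPKM at 32 weeks (0.78 ± 0.18, adjusted p 0.297, n = 3 per age). In WT it was at 92.1, 65.9 and 57.8 FPKM and then at 51.4, 57.1 and 66.6 FPKM, so again the KO libraries of 20 weeks were the lowest. Bgn, the proteoglycan biglycan, was at 280, 275 and 243 FPKM in KO against 409, 329 and 364 FPKM (0.46 ± 0.11). Fbln1, the matrix protein fibulin 1, was at 26.3, 28 and 29.0 FPKM against 40.2, 36.7 and 37.0 FPKM (0.44 ± 0.08), and at 29.2 to 38.0 FPKM over the WT libraries. Collagen and bone matrix genes as a list were mixed, with 21 of 34 higher and a median of 0.05. At an unadjusted p under 0.05, 3 genes were higher (8.82%, near the 8.83% of all genes). Another 3 were lower, where 3.75% of all genes were. Col11a1, a fibrillar collagen, was at 14.8, 18.5 and 18 FPKM against 12.5, 9.46 and 14.8 FPKM (-0.48 ± 0.17).

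**Figure D4:**
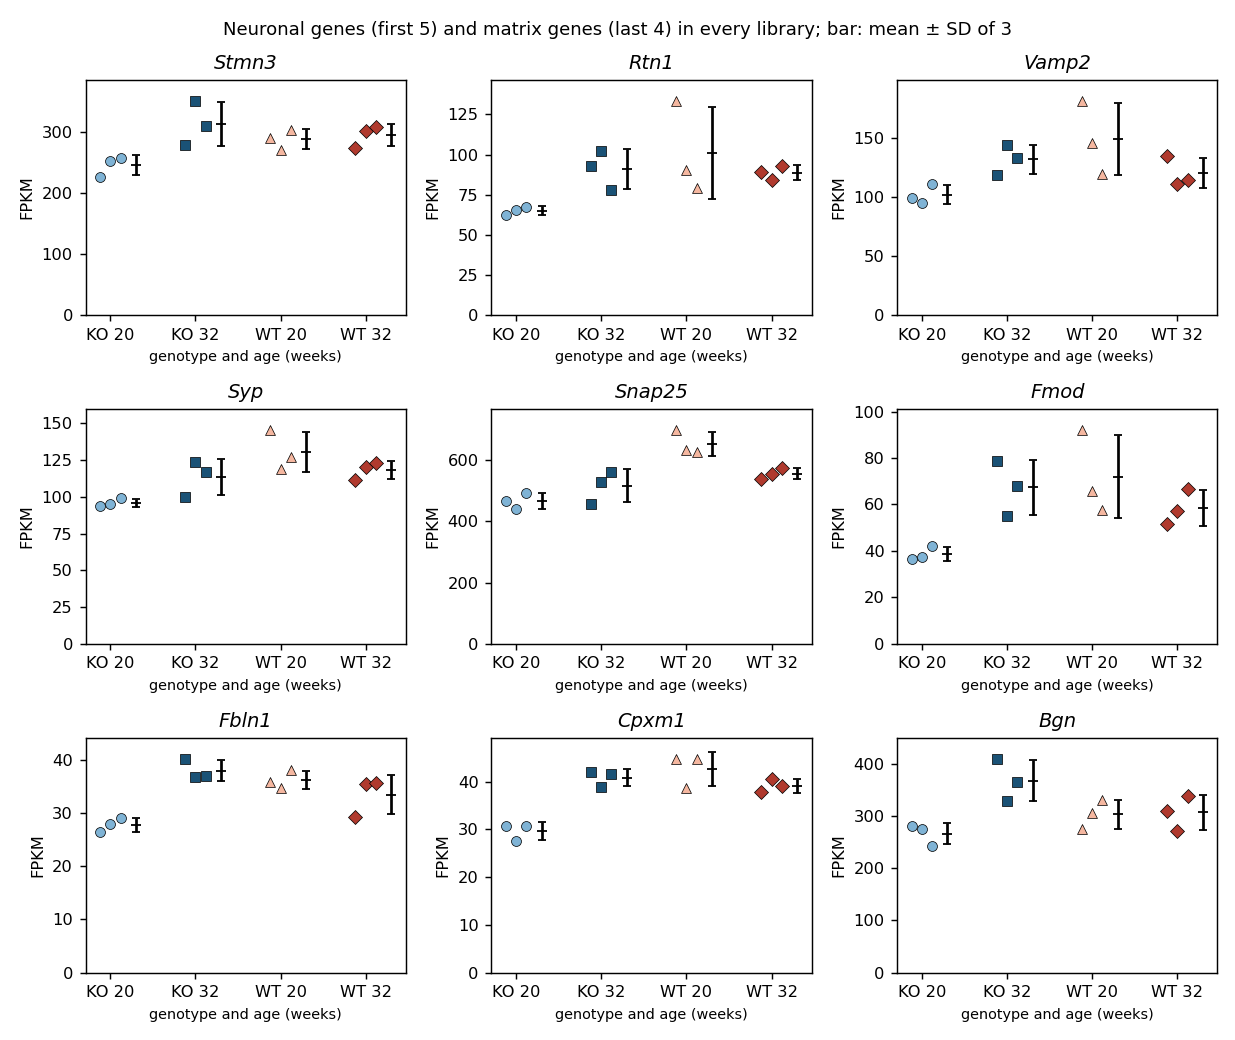
FPKM (y axis, from 0) of 5 neuronal and 4 matrix genes in each library, by genotype and age, with the mean ± SD of 3 beside the points. In KO every panel is higher on average at 32 weeks, and for Stmn3, Rtn1, Syp, Fmod, Fbln1 and Cpxm1 the 3 KO libraries of 20 weeks are the lowest of the 12. The genes drawn were taken from those named for small p or high level, with their values known. Their common direction is therefore no support for an age difference. Tubb3, which overlapped between the ages, is not drawn.

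Interferon response genes had 45 of 56 higher in KO, 10 (17.9%) at an unadjusted p under 0.05, with a median of 0.27 (0.24 relative to length), against 50 of 56 and 0.17 in WT. At that p 8.83% of all genes were higher in KO. Of genes of 2000 to 3000 exon bases, the class of the median length of the list, 9.44% were. Oasl2, an interferon-induced antiviral protein, was at 19.2, 13.2 and 23.5 FPKM at 20 weeks and 21.1, 31.0 and 27 FPKM at 32 weeks (0.51 ± 0.21). Ifih1, the RNA sensor MDA5, was at 5.83, 4.71 and 6.44 FPKM against 6.30, 7.87 and 7.80 FPKM (0.35 ± 0.12). In both, F5 lay within the range of 20 weeks and the female F6 and F27 above it. Among male libraries alone the median was 0.11, and without F18 it was 0.14. With sex as a covariate it was 0.19, with 47 of 56 higher. None was then at an unadjusted p under 0.05, where 6.16% of all genes were higher.

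Complement genes, a cascade of plasma proteins that tags cells for removal, had 18 of 27 higher and a median of 0.16 (WT 0.13), or 0.09 relative to genes of the same length. Serping1, the C1 inhibitor, was at 178, 165 and 173 FPKM against 215, 240 and 227 FPKM (0.40 ± 0.09, adjusted p 0.297, n = 3 per age). C1ra, a protease of the classical pathway, was at 11.4, 10.7 and 10.5 FPKM against 13.0, 14.5 and 14.5 FPKM (0.35 ± 0.11). Neither of the 2 overlapped between the ages.

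Cytokine and chemokine genes had 25 of 44 higher, 8 (18.2%) at an unadjusted p under 0.05, with a median of 0.06, or -0.03 relative to genes of the same length. Of all genes of 1000 to 2000 exon bases, the class of the median length of the list, 16.8% were higher at that p. The 4 of smallest p were the chemokines Cxcl14 and Cxcl16, the growth factor Tgfb3 and Mif, with differences of 0.29 to 0.43. Mif, macrophage migration inhibitory factor, was at 415, 423 and 413 FPKM against 470, 585 and 508 FPKM (0.32 ± 0.11). Ppbp, a chemokine of platelets, was at 421, 134 and 73.9 FPKM against 230, 14.2 and 12.5 FPKM (-2.20 ± 1.01). MHC genes had 18 of 23 higher (median 0.08, or 0.03 relative to length), and Cd74, the class II invariant chain, was at 386, 275 and 235 FPKM against 425, 395 and 350 FPKM (0.41 ± 0.20). Macrophage genes had 15 of 30 higher (-0.03), and T and NK cell genes 9 of 16 (0.12).

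Genes of blood-forming and dividing cells were lower on average at 32 weeks, in 2 libraries of the 3. None of 13 neutrophil primary granule genes was higher, and the list median was -1.18 against 1.94 in WT, where F12 was the highest library. Mpo, myeloperoxidase, was at 227, 48.1 and 88.0 FPKM at 20 weeks and at 198, 1.12 and 12.6 FPKM at 32 weeks (-2.62 ± 1.55, adjusted p 0.498, n = 3 per age). F5 lay within the younger range and F6 and F27 below it. Of 38 mitosis genes 1 was higher (-0.81), of 27 red cell genes 1 (-0.83), and of 23 megakaryocyte genes 2 (-1.16). Top2a, the topoisomerase of dividing cells, was at 20.5, 4.13 and 9.42 FPKM against 14.9, 1.15 and 0.943 FPKM. In these lists no more than 1 gene was at an unadjusted p under 0.05, where 3.75% of all genes were lower. The direction followed the libraries kept. With F5 as the 1 older library, among males, the medians were 0.51, 0.61, 0.50 and 0.45 for the primary granule, mitosis, red cell and megakaryocyte lists. With E7 and F5 left out, the libraries that stood highest in these genes, they were -1.73, -1.08, -1.20 and -1.34. Neither is a test of age.

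For mature B cell genes F5 lay below E7 and F19 on average. Of 18 mature B and plasma cell genes 16 were lower, 8 at an unadjusted p under 0.05 against 3.75% of all genes, with a median of -0.87. The median was -0.47 without E7, with 2 genes lower at that p, and -0.41 with sex as a covariate, with none, against 2.45% and 1.76% of all genes. For F5 as the 1 older male library it was -0.44, with none at that p. Ms4a1, which encodes CD20, was at 8.02, 1.84 and 4.01 FPKM at 20 weeks and at 1.45, 0.940 and 0.527 FPKM at 32 weeks (-1.65 ± 0.51, adjusted p 0.318, n = 3 per age). Rag1, the recombinase of B cell precursors, was at 3.60, 0.776 and 3.09 FPKM against 0.886, 0.187 and 0.345 FPKM (-1.51 ± 0.43). Ms4a1 did not overlap between the ages, and Rag1 did so through F18 and F5 alone. In WT, Ms4a1 was at 0.625, 0.588 and 0.187 FPKM at 20 weeks and at 0.610, 1.35 and 2.85 FPKM at 32 weeks. The genotype difference in the age contrast was negative at an unadjusted p under 0.05 for 8 of the 18 genes, against 1.66% of all genes. In WT the mean of this list was 1.36, 1.51 and 1.12 log2 at 20 weeks. It was 1.54, 1.69 and 2.84 log2 in F1, F10 and F12 at 32 weeks, so F12 stood apart. The part of F12 in the genotype difference was not tested.

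Of the pathway that DUSP1 serves, the MAP kinases themselves differed little, with 10 of 25 higher and a median of -0.02. Mapk3, which encodes ERK1, was at 162, 143 and 175 FPKM against 205, 216 and 170 FPKM (0.30 ± 0.09), with F27 inside the younger range. All 9 tested members of the DUSP family were lower at 32 weeks in KO (median -0.23), against 5 of 9 in WT (-0.06). Without F18, the library highest in this family, the KO median was -0.15 and all 9 were still lower. The 9 include Dusp1, and of them only Dusp2 was at an unadjusted p under 0.05, where 3.75% of all genes were lower. Dusp2, a phosphatase of lymphoid and myeloid cells, was at 4.13, 1.64 and 2.42 FPKM against 1.45, 0.890 and 0.460 FPKM (-1.16 ± 0.39, adjusted p 0.335, n = 3 per age). Dusp4, a nuclear phosphatase of ERK, was at 5.08, 17.3 and 5.85 FPKM against 4.54, 4.46 and 5.97 FPKM, where F18 alone stood high. Dusp7 was at 14.4, 15.6 and 13.8 FPKM against 12.9, 13.4 and 13.4 FPKM and Dusp10 at 4.57, 8.15 and 3.89 FPKM against 3.46, 3.71 and 3.34 FPKM. Both were without overlap, by margins of under 1 FPKM.

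Immediate early genes, the first transcripts that stimulated cells make, had 8 of 31 higher and a median of -0.15, against 18 of 31 and 0.09 in WT. Atf3, a stress-induced transcription factor, was at 4.57, 6.79 and 5.68 FPKM against 3.59, 4.99 and 3.24 FPKM (-0.48 ± 0.17), with overlap. Csrnp1 was at 5.54, 7.11 and 6.33 FPKM against 4.33, 5.38 and 5.38 FPKM (-0.30 ± 0.11), without overlap. NF-kB genes had 6 of 26 higher (-0.06), and Rel, the lymphoid subunit, was at 2.53, 1.73 and 2.28 FPKM against 1.40, 0.919 and 1.36 FPKM (-0.63 ± 0.17). Nfkbia, the inhibitor that NF-kB induces, was at 54.6, 52.1 and 60.9 FPKM against 57.1, 65.2 and 53.2 FPKM. Glucocorticoid response genes had 11 of 27 higher (-0.04), and Zbtb16, a strongly induced one, was at 6.48, 15.1 and 16.3 FPKM against 3.85, 5.20 and 9.93 FPKM (-0.94 ± 0.40).

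**Figure D5:**
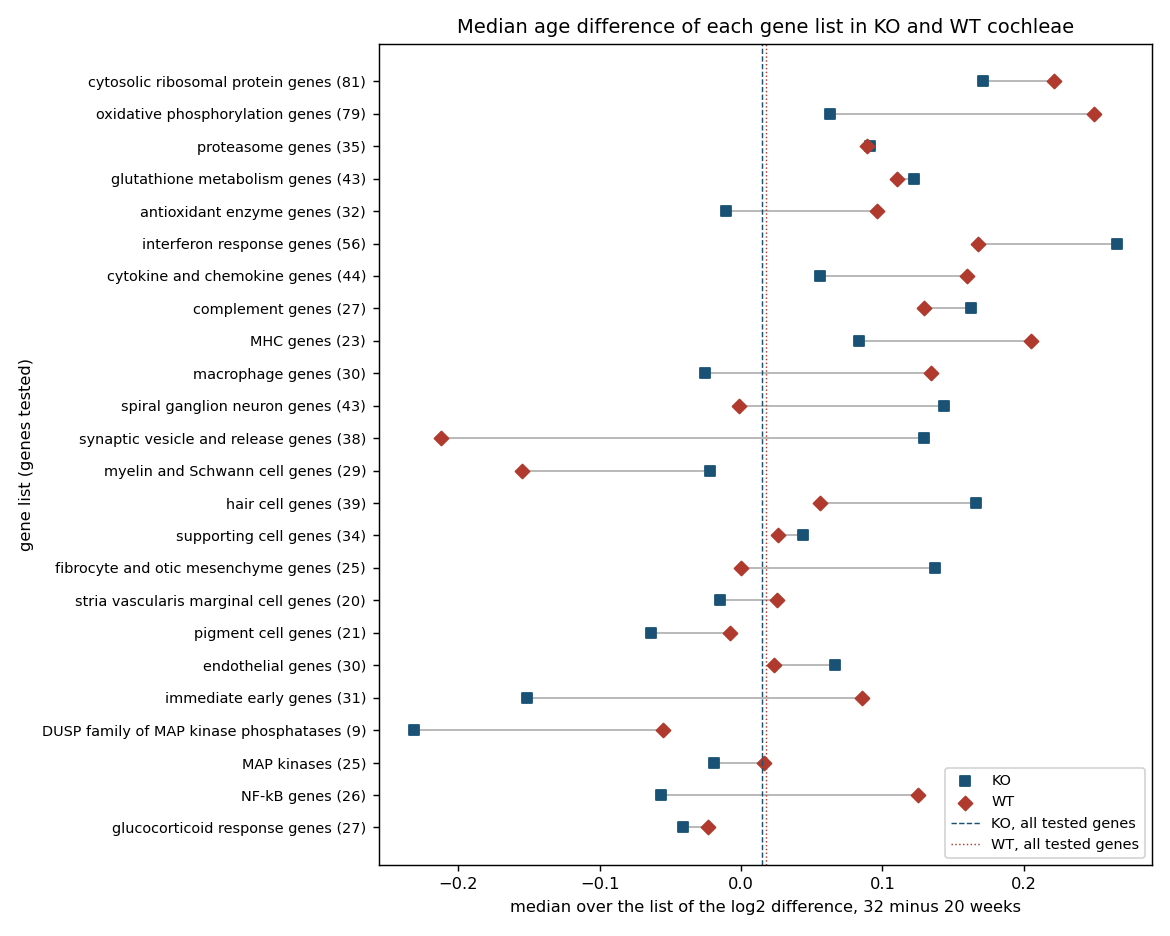
Median log2 difference between 32 and 20 weeks (x axis) over the tested genes of 24 lists, in KO (squares) and WT (diamonds), with the median of all tested genes as a dashed line (KO) and a dotted line (WT). The ribosomal list lies to the right in both (0.17 and 0.22), the synaptic list on opposite sides (0.13 and -0.21), and the DUSP family has the lowest KO median of the lists drawn (-0.23), which leave out the lists of blood-forming, dividing, fat and muscle cells.

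Of genes of cell death and damage, 16 of 41 apoptosis genes were higher (median -0.04). At an unadjusted p under 0.05, 3 were higher (7.32%, against 8.83% of all genes) and 3 lower, where 3.75% of all genes were. Bok, a killer of the BCL2 family, was at 6.31, 6.85 and 5.85 FPKM against 8.15, 8.67 and 7.35 FPKM (0.32 ± 0.10), and the survival factor Mcl1 at 65.3, 56.0 and 62.9 FPKM against 55.9, 52.3 and 45.4 FPKM (-0.26 ± 0.10). Both were without overlap, for Mcl1 barely so. DNA repair and damage checkpoint genes had 19 of 49 higher (-0.05), and Cdkn1a, the p21 cell cycle inhibitor, was at 50.5, 56.4 and 61.5 FPKM against 54.9, 54.1 and 55.7 FPKM, an overlap throughout. Genes of mitochondrial biogenesis had 5 of 28 higher (-0.09). This count depended on F18, where the list mean was 4.39 log2, against 4.08 in E7 and 3.94 in F19. In F5, F6 and F27 the list mean was 4.03, 4.05 and 3.96 log2. Without F18, 13 of 28 were higher (-0.04). Without E7 there were 5 (-0.10), and without F6 there were 3 (-0.09). Ppargc1a, the main regulator of mitochondrial biogenesis, was at 12.9, 17.6 and 17.0 FPKM against 11.9, 11.6 and 15.3 FPKM.

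In WT, 2 genes passed as higher with age (0.0123% of those tested) and none as lower (0%, with 577 genes at an unadjusted p under 0.05). The age contrast differed between the genotypes for 1 gene, lower in KO (0.00614%), and for none in the higher direction (0%, with 491 at an unadjusted p under 0.05). Both WT genes are microRNA genes, and 1 of them, Mir8116, gave the difference. MicroRNAs pair with targets through bases 2 to 8, the seed, shown in capitals in the mature RNAs of these genes (RefSeq, GRCm38.p6), so that a reader can see which RNAs the names stand for:
mmu-miR-8116: aAGGAUCCggggcuaguuggc
mmu-miR-760-3p: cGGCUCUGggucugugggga
mmu-miR-760-5p: cCCCUCAGgccaccagagcccgg
The libraries were made from polyadenylated RNA, so the values are reads over the gene and not mature microRNA.

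Mir8116 is annotated over 97 bases at chr5:137735008-137735104 (mm9, plus strand), inside the acetylcholinesterase gene Ache. It was at 36.2, 39.7 and 46.4 FPKM in KO at 20 weeks and at 74.5, 52.9 and 22.6 FPKM in KO at 32 weeks (0.14 ± 0.37). It was listed at 0 in all 3 WT libraries of 20 weeks and was at 22.4, 12.2 and 12.7 FPKM in those of 32 weeks (limma adjusted p 0.00143). The age contrast differed by -4.83 log2 between KO and WT (adjusted p 0.0490), a value that depends on the pseudocount since 1 group was at 0. Scaled by estimated depth and divided by the lowest value above 0, the values came within 0.29 of whole steps: 3.06, 3.17, 4.23, 6.25, 4.29 and 1.94 steps in E7, F18, F19, F5, F6 and F27, and 2.01, 1.05 and 1 in the older WT libraries. If a step is 1 read, the highest library holds about 6 reads. Ache itself was at 30.2, 21.1 and 20.5 FPKM in KO at 20 weeks and at 31.3, 27.6 and 23.4 FPKM at 32 weeks.

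Mir760 is annotated over 119 bases at chr3:121996503-121996621 (mm9, minus strand). It was listed at 0 in the 3 WT libraries of 20 weeks, was at 5.38, 15.2 and 14.1 FPKM in those of 32 weeks (adjusted p 0.00603), and was at 6.51, 14.9 and 6.26 FPKM and 14.4, 7.33 and 11 FPKM in KO at 20 and 32 weeks, which overlapped. Its values in the same steps reached 2.71 and were not whole, up to 0.49 from a whole step. Mir7091, of 79 bases inside Dnase1l1 on the X chromosome, was among the genes with the smallest p for the difference. Its KO values of 28.7, 30.9 and 27 FPKM at 20 weeks and 57.7, 62.0 and 83.4 FPKM at 32 weeks were 1.04, 1.06, 1.06, 2.08, 2.16 and 3.09 steps. When genes under 200 exon bases were left out, no gene passed in KO, in WT or for the difference.

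Of longer genes, those with the smallest p for the difference between genotypes did not pass adjustment. Rgs17, a regulator of G protein signalling, was at 3.06, 3.20 and 3.29 FPKM and then 3.59, 3.36 and 4.30 FPKM in KO, and at 4.84, 5.48 and 4.73 FPKM and then 2.87, 2.88 and 3.35 FPKM in WT (difference 0.84 ± 0.15, adjusted p 0.849). F2r, the thrombin receptor, was at 22.6, 20.4 and 19.4 FPKM and then 27.5, 27.7 and 25.6 FPKM in KO, and at 23.7, 30.1 and 24.8 FPKM and then 21.4, 18.7 and 20.7 FPKM in WT (0.73 ± 0.14). Mgmt, which repairs alkylated guanine, went the opposite way, at 8.11, 7.42 and 5.75 FPKM and then 6.08, 5.13 and 4.66 FPKM in KO, and at 3.97, 4.30 and 4.30 FPKM and then 6.30, 6.22 and 6.46 FPKM in WT (-0.93 ± 0.17). For F2r the ages did not overlap in either genotype, with KO higher and WT lower at 32 weeks. Ddah1, Itm2a, Cpxm1 and Fbln1 had differences of 0.48 to 0.58, all positive, and an adjusted p of 0.849 or 0.876.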

How the data were processed

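RNA of 12 mouse cochlear libraries was measured by single-end 50-base stranded polyA sequencing. The authors aligned reads to mm9 with TopHat2 2.0.10, Bowtie 1.0.0 and SAMtools 0.1.19, checked them with FastQC 0.10.1, and deposited FPKM per gene and library from Cufflinks 2.2.1. The submitters' processing notes give these versions. Many deposited values had lost their decimal point. It was put back where the 3 values of a group then averaged to the authors' group mean (relative tolerance 2e-05), which changed 55.17% of values and left out 3 of 23951 genes. The authors' fold changes and p-values were not used. FPKM hold no counts, so depth is an estimate, which assumes fragments of 200 bases and keeps only values within a fixed range of depth. Log2(FPKM + 0.5) of 16277 genes was fitted with limma 3.58.1 in R 4.3.3 (4 group means over 12 libraries, variance trend, Benjamini-Hochberg). The steps were tested on simulated data. Named genes were, in each direction, the 10 of smallest p that averaged 1 FPKM or more in KO, up to 4 of smallest p and 3 of highest level in each list, and 10 of smallest p for the genotype difference. Ache, Dnase1l1, S100a8 as a make-up marker and the tissue markers were named outside that rule. Members and lists were chosen with earlier results of these data known. Tables and figures were made in Python 3.11.15 with pandas 2.3.3, NumPy 2.4.6 and Matplotlib 3.10.9. Positions and exon lengths come from the deposited annotation. Some genes that the rule picks are not reported here.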

Additional observations from a re-analysis of the deposited data

Results flagged for a closer look

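The age contrast of Mir8116 differed between KO and WT by -4.83 log2 (limma, Benjamini-Hochberg adjusted p 0.0490). KO libraries ranged from 22.6 to 74.5 FPKM with no order by age, while WT libraries were listed at 0 at 20 weeks and lay between 12.2 and 22.4 FPKM at 32 weeks.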

How the results depend on the processing

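No gene passed an adjusted p of 0.05 in KO in the analysis reported. Under alternatives, genes called higher numbered 6 in male libraries alone, 3 without E7 and F5, 4 without E7, F5 and F18 (chosen after seeing the data) and 0 to 3 when 1 library was left out. Genes called lower numbered 1 with every gene of a mean above 0, 1 with the 6 KO libraries fitted alone, 3 in males, 1 without E7 and F5, 15 without E7, F5 and F18 and 0 to 2 when 1 library was left out. At an unadjusted p under 0.05, the 1438 higher genes became 633 in males, 809 without E7, F5 and F18 and 752 to 1703 with 1 library out. The 611 lower genes became 991 under median ratios, 922 with array weights, 308 in the KO libraries alone, 287 with sex as a covariate, 224 in males, 929 without E7 and F5, 1073 without E7, F5 and F18 and 190 to 1462 with 1 library out. In WT the 2 higher genes became 6 in males, 0 without short genes and 1 to 5 with 1 library out, and the 0 lower genes 5 in males, 1 without E7 and F5, 1 without E7, F5 and F18 and 0 to 1 with 1 out. For the difference between genotypes, 0 positive calls became 9 in males, 1 without E7 and F5, 3 without E7, F5 and F18 and 0 to 1 with 1 out. The 1 negative call became 2 with a pseudocount of 0.1, 4 in males, 3 without E7 and F5, 18 without E7, F5 and F18 and 0 to 4 with 1 out. It was 0 with a pseudocount of 1, a mean above 0, median ratios, no trend, sex as a covariate or no short genes. The male libraries hold 1 KO library of 32 weeks, F5, assumed to vary like the other groups. The cause of these shifts was not tested, beyond the fewer libraries or genes that some settings hold. Over 361 named genes 339 of 9373 values changed sign. No paired analysis was possible because the libraries carry animal codes and no shared replicate numbers. Depth could only be estimated, and 3 libraries per age limit what adjustment over 16277 genes can show.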

Other observations

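Across the 26 alternative analyses 35 genes passed an adjusted p of 0.05 in KO in at least 1, and 29 of them have under 200 exon bases. The other 6 are BC048546, Gstm2, Itgb3, LOC102636514, Ppp1r11 and Serpina3n, chosen here after their values were seen. Serpina3n, a secreted protease inhibitor of the acute phase, was at 3.27, 2.66 and 3.66 FPKM in KO at 20 weeks and at 12.3, 9.81 and 2.80 FPKM at 32 weeks, where F27 lay within the younger range. Ppp1r11, an inhibitor of protein phosphatase 1, was at 33.3, 31.5 and 27.6 FPKM against 31.8 in F5, 42.4 in F6 and 41.2 in F27. BC048546 was at 2.74, 2.54 and 2.56 FPKM against 3.05, 6.04 and 5.94 FPKM, so that F5 was near the younger libraries and F6 and F27, both female, were at about the same higher level. Itgb3, an integrin of platelets and osteoclasts, was at 34.5, 12.7 and 10.3 FPKM against 21.1, 3.87 and 4.59 FPKM.

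Osteoclast genes, of the cells that resorb bone, had 1 of 15 higher in KO (median -0.17). The list mean was 3.91, 3.61 and 3.61 log2 in E7, F18 and F19, and 3.95, 3.20 and 3.16 in F5, F6 and F27. The list median was -0.05 with sex as a covariate. With F5 as the 1 older library, among males, it was 0.23, so the direction followed the libraries kept. Col1a2, the second chain of type I collagen, was at 198, 222 and 183 FPKM in KO at 20 weeks and at 401, 151 and 179 FPKM at 32 weeks, with F5 highest. Bglap, the osteocalcin of osteoblasts, was at 200.3, 242 and 162 FPKM against 375, 215 and 257 FPKM. Clock genes had 9 of 26 higher in KO (median -0.05), and Dbp, an output gene of the clock, was at 55.5, 66.0 and 58.4 FPKM against 38.9, 87.6 and 68.6 FPKM, the widest spread being among the older libraries.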
